A study of Mus musculus with 6 samples.

Results

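The cadherin and protocadherin genes of the developing mouse retina were examined in RNA-seq libraries made at postnatal day 7 (P7). Members were all rows of the deposited expression table whose symbol was *Cdh* followed by a digit or began with *Pcdh*, and whose mean was at least 0.1 FPKM over the 6 libraries. FPKM is the number of sequenced fragments scaled to the length of the gene's transcripts and to the depth of the library. Of 91 rows with such a symbol, 88 passed this level and were compared, among 15200 genes tested. The 3 that did not pass were *Cdh16*, listed at 0 in every library, *Cdh17*, with a mean of 0.0181 FPKM, and *Pcdhb1*, with a mean of 0.00189 FPKM. *Cdh19* lay just inside the level, between 0.0821 and 0.171 FPKM in the 6 libraries. The 88 rows comprised 20 *Cdh* genes, 12 protocadherins outside the clusters, and 56 clustered protocadherins (14 alpha, 21 beta, and 21 gamma). The symbols *Pcdha11* and *Pcdhga8* each occurred on a pair of rows, and the *Pcdhga8* row with identifier ENSMUSG00000023036 is *Pcdhgc4* in the GENCODE vM21 annotation.

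The study asked how the retina develops without *Lhx4*, a LIM-homeodomain transcription factor of bipolar cells. The 3 *Lhx4* null libraries came from *Lhx4* tdT/loxP; *Six3-Cre* mice, in which 1 allele carries a tdTomato reporter and the other is deleted by a Cre recombinase active in the retina, as the study defines its *Lhx4* null mice. The genotype of the 3 control mice is not given for these libraries beyond "control", and the study used wild type, *Lhx4* loxP/+, and other controls in its other experiments. All were on a mixed C57BL/6J; 129S6 background. Each library held the retinas of 1 mouse, dissected free of pigment epithelium, and the labels give no batch.

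Classical cadherins are calcium-dependent adhesion proteins that bind their own kind on the neighbouring cell and hold the actin cytoskeleton through catenins. In the retina, type II classical cadherins are known for guiding bipolar and ganglion cell processes to their synaptic layers, and *Cdh8* and *Cdh9* are known for steering the axons of different bipolar cell types. Clustered protocadherins are made from arrays of variable exons, each with its own promoter, and give single neurons a surface identity that keeps the dendrites of one cell from crossing each other. The long cadherins encoded by *Cdh23* and *Pcdh15* form the tip links of hair cells and are found in photoreceptors.

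*Lhx4* itself was higher, not lower, in all 3 libraries labelled *Lhx4* null, at 31.2, 30.3, and 29.0 FPKM against 20.9, 23.8, and 19.1 FPKM in the controls (log2 fold change 0.51, adjusted p = 0.0978). The gene-level value does not show which exons were read, and the null group is referred to by its label throughout. *Bhlhe23*, a transcription factor of bipolar cells, was at 10.2, 13.02, and 10.6 FPKM in the controls and at 0.814, 0.563, and 0.830 FPKM in those labelled *Lhx4* null (log2 fold change -3.78, adjusted p = 0.000171 from limma), so the labelled groups differed widely in a bipolar cell gene. The study had already named *Bhlhe23* among the genes most lowered in these same libraries, so this is not an independent check of the labels. Replicates of a group correlated across genes with r from 0.982 to 0.992. Relative to the deepest library, the controls had from 76.8% to 100% of its depth and the libraries labelled *Lhx4* null from 46.7% to 65.9%, so that low values were measured less precisely in the latter. Retinal genes were abundant in every library, and the summed level of the rod and cone markers lay between 2739 and 3698 FPKM.

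Most members were low or moderate in level. Averaged over the 6 libraries, 7 members were over 10 FPKM, 70 lay between 1 and 10 FPKM, and 11 were under 1 FPKM, with a median of 2.75 FPKM. *Pcdh15* at 54.9 FPKM and *Cdh2* at 52.7 FPKM were the most abundant, and contributed 12.6% and 12.1% of the summed FPKM of all members. *Pcdhgc3* (23.0 FPKM), *Cdh11* (17.7 FPKM), *Pcdh10* (14.5 FPKM), the *Pcdhgc4* row (14.1 FPKM), and *Pcdh1* (10.2 FPKM) followed. The summed FPKM of all members was 434, 425, and 417 in control replicates 1, 2, and 3 and 444, 458, and 441 in replicates 1, 2, and 3 labelled *Lhx4* null. The group sums did not overlap, although their means differed by little (426 ± 8.64 against 447 ± 9.10, SD, n = 3 each).

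Of the 88 members, *Cdh8* fell and *Cdh20* rose at an adjusted p under 0.05 in limma, with adjustment over all genes tested. Over all genes, 0.138% were called lower and 0.0855% higher by this rule. At an unadjusted p under 0.05, 2 members were lower (*Cdh8* and *Pcdh11x*, 2.27% of members against 3.55% of all genes) and 7 were higher (7.95% against 4.6%). These 7 were *Cdh20*, *Cdh3*, *Cdh9*, *Pcdhgc3*, *Cdh13*, *Cdh2*, and *Pcdhb4*. The count of higher members at this level moved with single libraries, from 3 without control replicate 3 and 4 without *Lhx4* null replicate 2 to 12 without *Lhx4* null replicate 3, and the lower count was 1 without control replicate 1 or 3. In 4 members every control lay above the 3 libraries labelled *Lhx4* null (4.55% against 6.13% of all genes), and in 11 every control lay below them (12.5% against 8.1%).

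Differences were small in most members. The log2 fold change lay between -0.5 and 0.5 in 84 of 88, and only *Cdh8*, *Cdh20*, *Cdh3*, and *Cdh9* lay past these limits. More members were higher than lower, 65 against 23 (73.9% higher, against 53.3% of all genes), and the median log2 fold change was 0.095 against 0.011 over all genes. Of these 65, 45 were clustered protocadherin rows, many of which share exons and are not independent. Among the 32 unclustered members, 20 were higher (62.5%), with a median of 0.056. The 95% confidence interval of the difference had a median half-width of 0.346 on the log2 scale, and it lay within -1 to 1 for 82 members and within -0.5 to 0.5 for 46. A change of less than about that half-width was thus not detectable in the typical member even at an unadjusted p under 0.05 in limma. The adjusted test asks for a larger change than this. *Cdh3* and *Cdh9*, both past 0.5, did not pass it. With 3 libraries against 3, an exact permutation test of a single gene cannot go below p = 0.1, so the p-values given here come from limma, which shares the estimate of the spread over all genes.

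**Figure D1:**
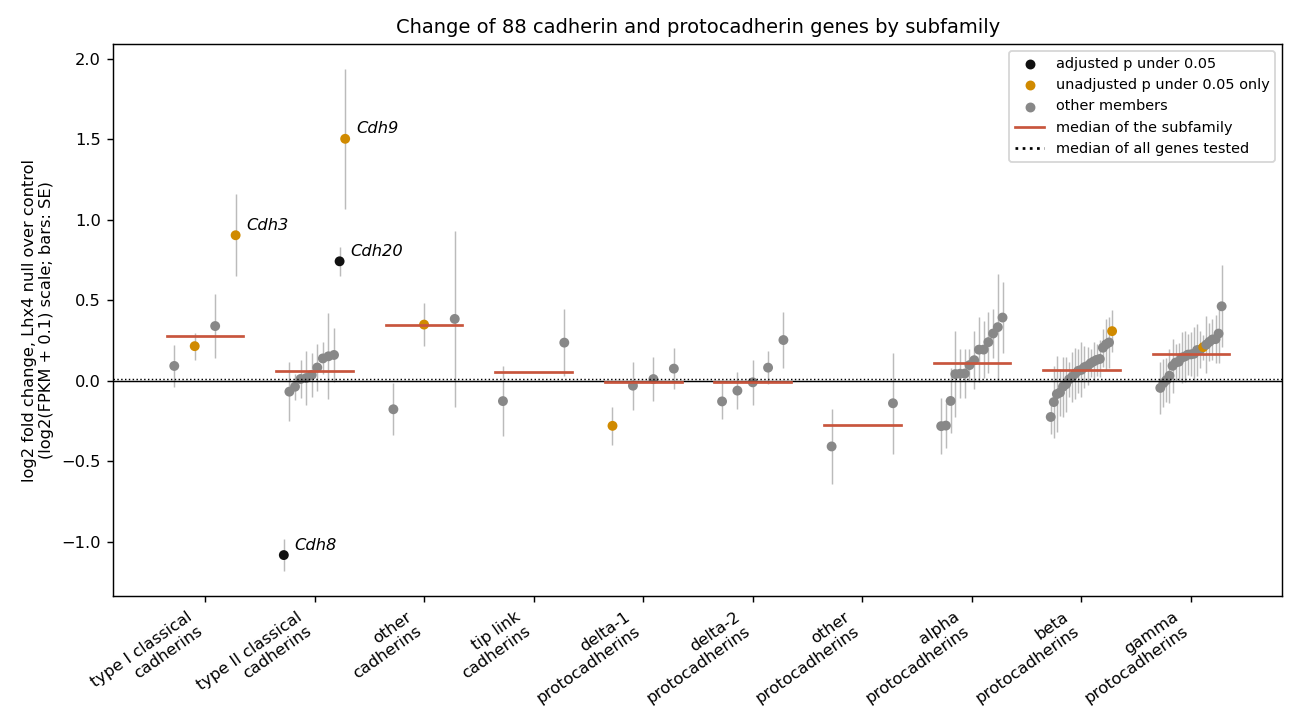
Log2 fold change (*Lhx4* null over control, on the log2(FPKM + 0.1) scale, vertical axis) of each of the 88 members, grouped by subfamily; bars are standard errors, red lines subfamily medians, and the dotted line the median of all genes tested. *Cdh8* at -1.08 and *Cdh20* at 0.74 (black) had an adjusted p under 0.05, and most other members lie close to 0.

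*Cdh8* (ENSMUSG00000036510), a type II classical cadherin known for synapse and layer recognition, had the lowest log2 fold change of all members and was also among the genes listed by the study for these libraries. It was at 10.2, 12.5, and 10.6 FPKM in the controls and at 5.28, 5.07, and 5.16 FPKM in those labelled *Lhx4* null. The groups were far apart, and the libraries labelled *Lhx4* null were closely spaced (11.1 ± 1.22 against 5.17 ± 0.105 FPKM, SD, n = 3 each). The log2 fold change was -1.08 (standard error 0.10, 95% interval -1.31 to -0.85, adjusted p = 0.00482 from limma), or 2.12-fold lower on the log2(FPKM + 0.1) scale. The call was kept when any 1 library was left out. Bipolar cell markers moved in the same direction: 16 of 18 were lower, 8 of them at an adjusted p under 0.05, with a median log2 change of -0.70 and a summed level of 1027 to 1194 FPKM in the controls and 803 to 873 FPKM in those labelled *Lhx4* null. The called markers were *Isl1* and *Bhlhe23*, *Fezf2*, *Grik1*, *Grm6*, *Lhx3*, *Pcp2*, and *Scgn*. All but *Isl1* had been reported as lower by the study from these same libraries, so the count is not separate evidence. The part of bipolar cells in the fall of *Cdh8* was not tested, and in whole retinas fewer cells of a type and less RNA per cell cannot be told apart.

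*Cdh20* (ENSMUSG00000050840), another type II classical cadherin, went the other way. It was at 5.01, 4.54, and 4.70 FPKM in the controls and at 7.72, 8.14, and 8.17 FPKM in those labelled *Lhx4* null. No library came near the other group (4.75 ± 0.236 against 8.01 ± 0.251 FPKM, SD, n = 3 each). The log2 fold change was 0.74 (standard error 0.089, 95% interval 0.54 to 0.95, adjusted p = 0.0223 from limma), or 1.67-fold higher. The size held at 0.71 to 0.78 when single libraries were left out, but the adjusted p from limma rose above 0.05 without control replicate 1 (0.0828), 2 (0.0838), or 3 (0.133), and without *Lhx4* null replicate 2 (0.106) or 3 (0.0900). Amacrine cell markers were higher in 11 of 12 (against 53.3% of all genes), with a median log2 change of 0.12, 0 at an adjusted p under 0.05 and 3 at an unadjusted p under 0.05 in limma (4.6% of all genes), and a summed level of 316 to 361 FPKM in the controls and 335 to 372 FPKM in those labelled *Lhx4* null. This rise was not particular to them. Medians were larger for Müller glia (0.24), microglia (0.26), proliferation (0.49), and pigment markers (0.70). Horizontal (0.12) and ganglion cell markers (0.03) were no further from 0, and the remaining lists had medians below 0. The part of any cell type in the rise of *Cdh20* was not tested.

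Because these were the members that passed the adjusted test, in opposite directions, the bases before their annotated starts are shown, with TAAT, the core recognised by many homeodomain proteins, in capitals on either strand (ATTA is its reverse complement). *Cdh8* spans chr8:99024471-99416471 on the minus strand of GRCm38 and *Cdh20* spans chr1:104768529-104995481 on the plus strand (GENCODE vM21). The 250 bases upstream of each RefSeq start (GRCm38.p6) lie at chr1:104768270-104768519 for *Cdh20* and chr8:99416472-99416721 for *Cdh8*, each printed 5′ to 3′ on the gene's strand.
Cdh20: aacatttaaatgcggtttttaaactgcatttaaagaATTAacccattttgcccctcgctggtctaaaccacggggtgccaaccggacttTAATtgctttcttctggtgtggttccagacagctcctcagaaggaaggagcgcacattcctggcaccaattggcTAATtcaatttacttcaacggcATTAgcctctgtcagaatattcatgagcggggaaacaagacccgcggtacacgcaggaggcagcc
Cdh8: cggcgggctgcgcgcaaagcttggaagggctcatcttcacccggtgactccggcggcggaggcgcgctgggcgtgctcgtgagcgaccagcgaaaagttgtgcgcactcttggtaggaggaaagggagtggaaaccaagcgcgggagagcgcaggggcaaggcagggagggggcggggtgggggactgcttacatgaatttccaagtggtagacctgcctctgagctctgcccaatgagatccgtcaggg
The *Cdh20* window held TAAT 4 times and had a GC content of 47.6%, and the *Cdh8* window held it 0 times at a GC content of 64.4%. Of 32851 RefSeq promoter windows of this length, 54.9% held TAAT at least once on either strand and 9.62% held it at least as often as that of *Cdh20*, with a median GC content of 52.4%. The longer palindrome TAATTA was in neither window and in 4.84% of all windows. These matches describe the letters of the windows and do not show binding.

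*Cdh9* (ENSMUSG00000025370; chr15:16728756-16857094, plus strand) had the largest positive log2 fold change of the members, but it did not pass the adjusted test. This type II cadherin, known for guiding the axons of ON bipolar cells and also listed by the study for these libraries, was at 0.648, 1.37, and 0.620 FPKM in the controls and at 4.50, 1.32, and 2.67 FPKM in those labelled *Lhx4* null. The study's list, which also held *Cdh8* and *Cdh3*, took genes at a fold change over 2 and a p under 0.05 with Cufflinks. That rule differs from the adjusted limma test used here. The groups overlapped, because *Lhx4* null replicate 2 lay below control replicate 2. The log2 fold change was 1.5 (standard error 0.43, 95% interval 0.51 to 2.50, adjusted p = 0.418 from limma) and ranged from 1.10 to 1.95 when single libraries were left out. Of its exon bases, 6.33% overlap a gene on the opposite strand, and whether counting used strand is not given in the sources used here.

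The other type II cadherins differed little between the groups. Of 12 in all, 9 were higher and 3 lower, with a median log2 change of 0.06, and 1 passed the adjusted test in each direction. *Cdh11*, the most abundant of them and a cadherin of mesenchyme and glia, was at 18.1, 18.5, and 17.1 FPKM in the controls and at 16.0, 18.6, and 17.7 FPKM in those labelled *Lhx4* null (log2 fold change -0.04, 95% interval -0.22 to 0.15). Members on the same chromosome as these genes did not move as a block. Beside *Cdh20* on chromosome 1, *Cdh7* had a log2 fold change of 0.02 and *Cdh19* of 0.15, and beside *Cdh9* on chromosome 15, *Cdh6*, *Cdh10*, *Cdh12*, and *Cdh18* lay between -0.07 and 0.16. On chromosome 8, which holds *Cdh8*, *Cdh11* and *Cdh5* were at -0.04 and -0.18, and *Cdh1*, *Cdh13*, and *Cdh3* at 0.34, 0.35, and 0.90. The fall of *Cdh8* and the higher values of *Cdh20* and *Cdh9* left the summed FPKM of the type II cadherins nearly level, at 57.0 ± 2.87 in the controls and 57.1 ± 0.862 in those labelled *Lhx4* null (SD, n = 3 each).

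**Figure D2:**
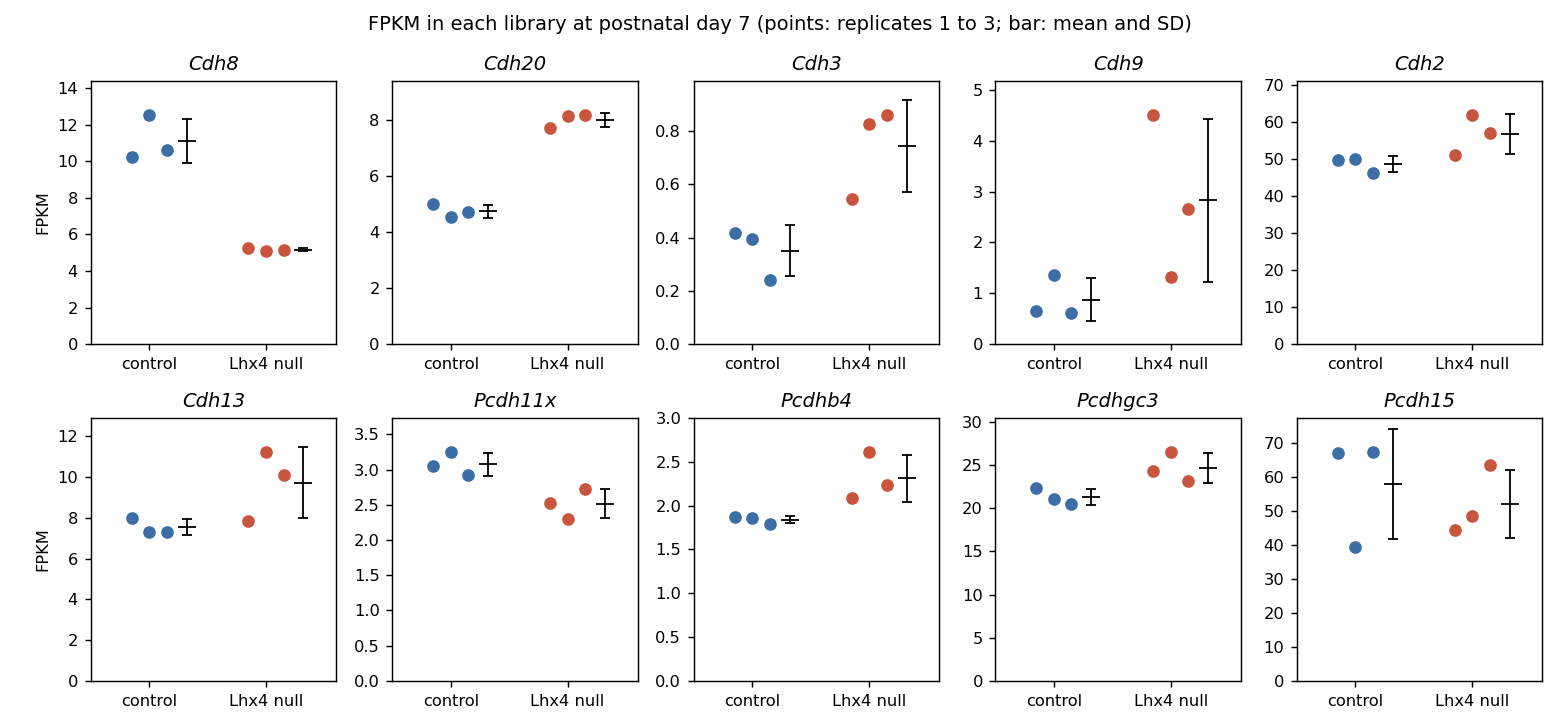
FPKM in each library (points, replicates 1 to 3 from left to right) with the mean and SD of each group, for 10 members. The groups are clearly apart for *Cdh8* and *Cdh20*, narrowly apart for *Cdh3*, *Cdh2*, *Pcdh11x*, *Pcdhb4*, and *Pcdhgc3*, and overlapping for *Cdh9*, *Cdh13*, and *Pcdh15*.

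The 4 type I classical cadherins were all higher in the libraries labelled *Lhx4* null, and 0 of them passed the adjusted test. Their median log2 fold change was 0.28, and 2 had an unadjusted p under 0.05 in limma, a level at which 4.6% of all genes were higher. *Cdh2*, N-cadherin, the main cadherin of neural tissue and of the junctions between Müller glia and photoreceptors, was at 49.8, 50.0, and 46.2 FPKM in the controls and at 51.1, 61.8, and 57.2 FPKM in those labelled *Lhx4* null. The groups were separated by a narrow gap (log2 fold change 0.22, standard error 0.084, adjusted p = 0.588 from limma). *Cdh4*, R-cadherin, overlapped between the groups, with 9.34, 10.5, and 8.85 FPKM against 10.6, 11.7, and 8.52 FPKM (log2 fold change 0.09). *Cdh1*, E-cadherin of epithelia, was near the low end of the members, at 0.329, 0.279, and 0.299 FPKM in the controls and 0.401, 0.418, and 0.407 FPKM in those labelled *Lhx4* null, without overlap (log2 fold change 0.34, adjusted p = 0.693 from limma). Müller glia markers were higher in 8 of 9, with a median log2 change of 0.24, 0 at an adjusted p under 0.05 and 3 at an unadjusted p under 0.05 in limma. Their summed level was 714 to 786 FPKM in the controls and 868 to 885 FPKM in those labelled *Lhx4* null, and their part in the values of *Cdh2* was not tested.

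*Cdh3* (ENSMUSG00000061048; chr8:106510891-106557297), P-cadherin, is known from the retinal pigment epithelium and other epithelia, and it too was among the genes that the study listed. It was at 0.419, 0.395, and 0.242 FPKM in the controls and at 0.547, 0.828, and 0.859 FPKM in those labelled *Lhx4* null. The groups did not overlap, but the gap was small beside the spread (log2 fold change 0.90, standard error 0.25, 95% interval 0.32 to 1.49, adjusted p = 0.401 from limma). With a pseudocount of 1 FPKM the log2 fold change was 0.37, since the gene is low. Pigment epithelium and pigment cell markers were higher in 11 of 13, with a median log2 change of 0.70, 0 at an adjusted p under 0.05 and 7 at an unadjusted p under 0.05 in limma. Their summed level was 51.2, 44.9, and 26.1 FPKM in the controls and 55.6, 70.7, and 94.2 FPKM in those labelled *Lhx4* null. From lowest to highest, the 6 libraries fell in the same order for this sum and for *Cdh3*. The sum rested largely on *Ttr*, at 25.9 FPKM in control replicate 1 and 48.5 FPKM in *Lhx4* null replicate 3. Neither *Rpe65* nor *Tyrp1* followed this order, as *Lhx4* null replicate 1 lay below control replicate 1 (0.465 against 0.975 and 2.19 against 2.46 FPKM). Of the defining markers, *Tyrp1* was between 1.13 and 4.06 FPKM and *Rpe65* between 0.457 and 1.61 FPKM, and none was at 0. The part of pigmented tissue in the values of *Cdh3* was not tested.

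Among the other cadherins, *Cdh13*, a truncated cadherin held in the membrane by a lipid anchor, was at 7.99, 7.30, and 7.32 FPKM in the controls and at 7.85, 11.2, and 10.1 FPKM in those labelled *Lhx4* null. The groups overlapped by 1 library (log2 fold change 0.35, adjusted p = 0.575 from limma). *Cdh5*, the VE-cadherin of blood vessels, was at 3.10, 3.54, and 2.71 FPKM against 3.12, 2.24, and 2.91 FPKM (log2 fold change -0.18, adjusted p = 0.796 from limma). Endothelial markers were lower in 10 of 12, with a median log2 change of -0.22, 0 at an adjusted p under 0.05 and 3 lower and 1 higher at an unadjusted p under 0.05 in limma. Their summed level was 70.6 to 84.5 FPKM in the controls and 74.3 to 85.1 FPKM in those labelled *Lhx4* null. *Lhx4* null replicate 2, the lowest library for *Cdh5*, was the lowest for 7 of the 12 endothelial markers and the highest for 2 (*Kdr* and *Vwf*), and its endothelial sum of 76.4 FPKM was not the lowest. Most of that sum was *Kdr* alone, at 51.4 FPKM. *Kdr* was at 35.9, 44.4, and 35.5 FPKM in the controls and moved against most of the list (log2 fold change 0.32). The sum therefore says little about the other endothelial markers. *Cdh26*, a low epithelial cadherin, varied from 0.0502 to 0.400 FPKM within the controls alone.

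The tip link cadherins showed no difference beyond the spread of the libraries. *Pcdh15*, the most abundant member, was at 67.1, 39.2, and 67.2 FPKM in the controls and at 44.3, 48.4, and 63.4 FPKM in those labelled *Lhx4* null. The high libraries were control replicates 1 and 3 and *Lhx4* null replicate 3, so that the spread ran across the groups and not between them (log2 fold change -0.13, standard error 0.22, 95% interval -0.63 to 0.37). Without control replicate 1 or 3 the log2 fold change was near 0 (0.0021 and 0.0038). *Cdh23* was far lower than its partner, at 0.942, 0.667, and 0.787 FPKM against 0.952, 1.18, and 0.760 FPKM (log2 fold change 0.24, 95% interval -0.24 to 0.72). Rod and cone markers were lower in 7 of 11 and higher in 4, with a median log2 change of -0.13, and *Opn1sw* was called higher at an adjusted p under 0.05. Their summed level was 3205 to 3698 FPKM in the controls and 2739 to 3597 FPKM in those labelled *Lhx4* null.

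The delta protocadherins, single genes that bind signalling partners inside the cell and are known for axon outgrowth and sorting, were even between the groups. Of 4 delta-1 genes, 2 were lower and 2 higher, and of 5 delta-2 genes, 3 were lower and 2 higher, each set with a median log2 change of -0.01. *Pcdh11x* (chrX:120290259-120910619) was the one with an unadjusted p under 0.05, at 3.05, 3.25, and 2.93 FPKM in the controls and 2.53, 2.30, and 2.72 FPKM in those labelled *Lhx4* null. The groups did not overlap, by a narrow gap (log2 fold change -0.28, standard error 0.12, adjusted p = 0.607 from limma). *Pcdh1* was at 9.55, 11.6, and 9.77 FPKM against 12.2, 10.1, and 8.19 FPKM, and *Pcdh7* at 9.88, 9.34, and 8.84 FPKM against 11.7, 8.80, and 8.12 FPKM. Both overlapped widely (log2 fold changes -0.03 and 0.01), and 21.1% of the exon bases of *Pcdh7* overlap a gene on the opposite strand.

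*Pcdh10*, the most abundant delta-2 gene, was at 16.3, 14.6, and 14.6 FPKM in the controls and at 16.3, 12.4, and 13.2 FPKM in those labelled *Lhx4* null (log2 fold change -0.13, 95% interval -0.39 to 0.13). *Pcdh8*, known for activity-dependent removal of N-cadherin from the synapse, was at 5.71, 7.52, and 5.70 FPKM against 6.49, 6.79, and 5.45 FPKM (log2 fold change -0.01). *Pcdh19*, the epilepsy gene of this set, lay between 3.74 and 4.34 FPKM in all 6 libraries. The remaining pair of unclustered genes was low and uneven. *Pcdh12*, a vascular protocadherin, was at 0.735, 1.13, and 0.846 FPKM against 1.20, 0.459, and 0.902 FPKM, and *Lhx4* null replicate 2 was again the lowest. *Pcdh20* was at 0.541, 0.665, and 0.412 FPKM against 0.458, 0.316, and 0.362 FPKM (log2 fold change -0.41, adjusted p = 0.689 from limma).

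Of the 56 clustered protocadherins, 45 were higher and 11 lower (80.4% higher, against 53.3% of all genes), with a median log2 change of 0.12, and 0 passed the adjusted test. At an unadjusted p under 0.05 in limma, 0 were lower (against 3.55% of all genes) and 2 were higher (3.57%, below the 4.6% of all genes). These genes lie side by side in 3 arrays on chromosome 18, and their rows are not independent. By the GENCODE vM21 annotation, the alpha rows share from 38.0% to 54.9% and the gamma rows from 27.8% to 66.8% of their exon bases with other members, since all variable exons of an array join the same constant exons. The beta genes have no constant exons, and 2 of 21 share any base. How Cufflinks divided fragments of the constant exons among the rows is not given in the sources used here, so single alpha and gamma values are uncertain. Overlap with genes on the opposite strand adds to this for some rows, among them *Pcdhb12* (63.5% of exon bases), *Pcdhgc3* (28.4%), and *Pcdha12* (9.95%).

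The gamma array had the most even sign. Of its 21 rows, 19 were higher (90.5%, against 53.3% of all genes) and 2 lower, with log2 fold changes from -0.04 for *Pcdhga1* to 0.46 for *Pcdhga9* and a median of 0.16. The groups did not overlap for 2 of them, *Pcdhgc3* and *Pcdhga4*, both higher (9.52%, near the 8.1% of all genes). *Pcdhgc3*, the most abundant clustered gene, was at 22.3, 21.1, and 20.5 FPKM in the controls and at 24.3, 26.5, and 23.1 FPKM in those labelled *Lhx4* null. The gap between the groups was narrow (log2 fold change 0.21, standard error 0.078, adjusted p = 0.565 from limma). The *Pcdhgc4* row, an isoform known for the survival of inhibitory neurons, was at 12.9, 16.3, and 11.2 FPKM against 14.3, 17.5, and 12.6 FPKM (log2 fold change 0.14). The summed FPKM of the gamma rows was 91.1, 101, and 86.3 in the controls and 107, 115, and 93.5 in those labelled *Lhx4* null, and control replicate 2 lay above *Lhx4* null replicate 3.

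Among the 14 alpha rows, 11 were higher and 3 lower, with a median log2 change of 0.11. The lowest were *Pcdha7* (-0.28, groups overlapping) and *Pcdha12*, which was at 1.75, 1.74, and 1.72 FPKM in the controls and 1.53, 1.47, and 1.26 FPKM in those labelled *Lhx4* null without overlap (log2 fold change -0.28, adjusted p = 0.654 from limma). *Pcdhac2*, a C-type alpha gene known for the tiling of serotonergic axons, was at 5.85, 6.39, and 5.40 FPKM against 6.21, 6.46, and 6.19 FPKM. *Pcdha2* was at 1.82, 2.07, and 2.15 FPKM against 2.89, 2.53, and 2.10 FPKM. Both overlapped between the groups (log2 fold changes 0.10 and 0.29), as did the alpha sums of 22.6, 26.3, and 21.7 FPKM against 26.6, 25.1, and 23.5 FPKM.

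Of the 21 beta genes tested, 15 were higher and 6 lower, with a median log2 change of 0.07. All libraries labelled *Lhx4* null lay above the controls for 5 of them (23.8%, against 8.1% of all genes) and below for 1 (4.76%, against 6.13%). *Pcdhb4* was at 1.87, 1.86, and 1.79 FPKM in the controls and at 2.09, 2.61, and 2.23 FPKM in those labelled *Lhx4* null. The controls were closely spaced (log2 fold change 0.31, standard error 0.13, adjusted p = 0.609 from limma). The other 4 that lay above were *Pcdhb7*, *Pcdhb12*, *Pcdhb17*, and *Pcdhb22*, with log2 fold changes from 0.11 to 0.21. *Pcdhb17*, the most abundant beta gene with *Pcdhb20*, was at 6.29, 6.19, and 5.98 FPKM against 6.36, 6.72, and 6.86 FPKM, and *Pcdhb20* was at 5.75, 6.65, and 5.67 FPKM against 5.69, 7.31, and 6.72 FPKM. *Pcdhb8*, the one that lay below, was at 3.49, 3.51, and 3.39 FPKM against 2.99, 3.11, and 2.76 FPKM (log2 fold change -0.22, adjusted p = 0.642 from limma). The beta sums overlapped, at 61.0, 57.7, and 60.1 FPKM in the controls and 60.3, 63.6, and 63.5 FPKM in those labelled *Lhx4* null.

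**Figure D3:**
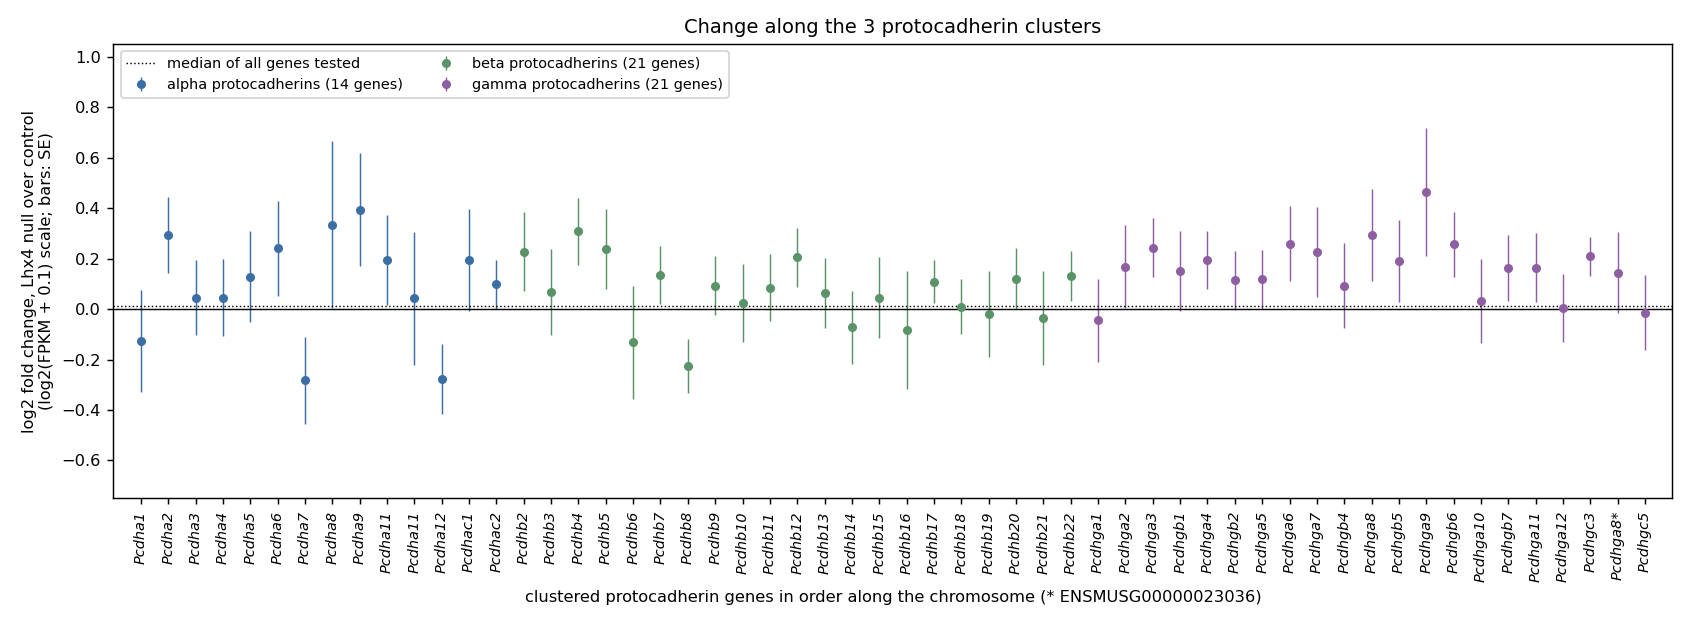
Log2 fold change (*Lhx4* null over control, on the log2(FPKM + 0.1) scale) with its standard error for the 56 clustered protocadherin rows in their order along the chromosome. Most alpha (blue), beta (green), and gamma (purple) genes lie slightly above 0, and every value lies between -0.5 and 0.5.

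**Figure D4:**
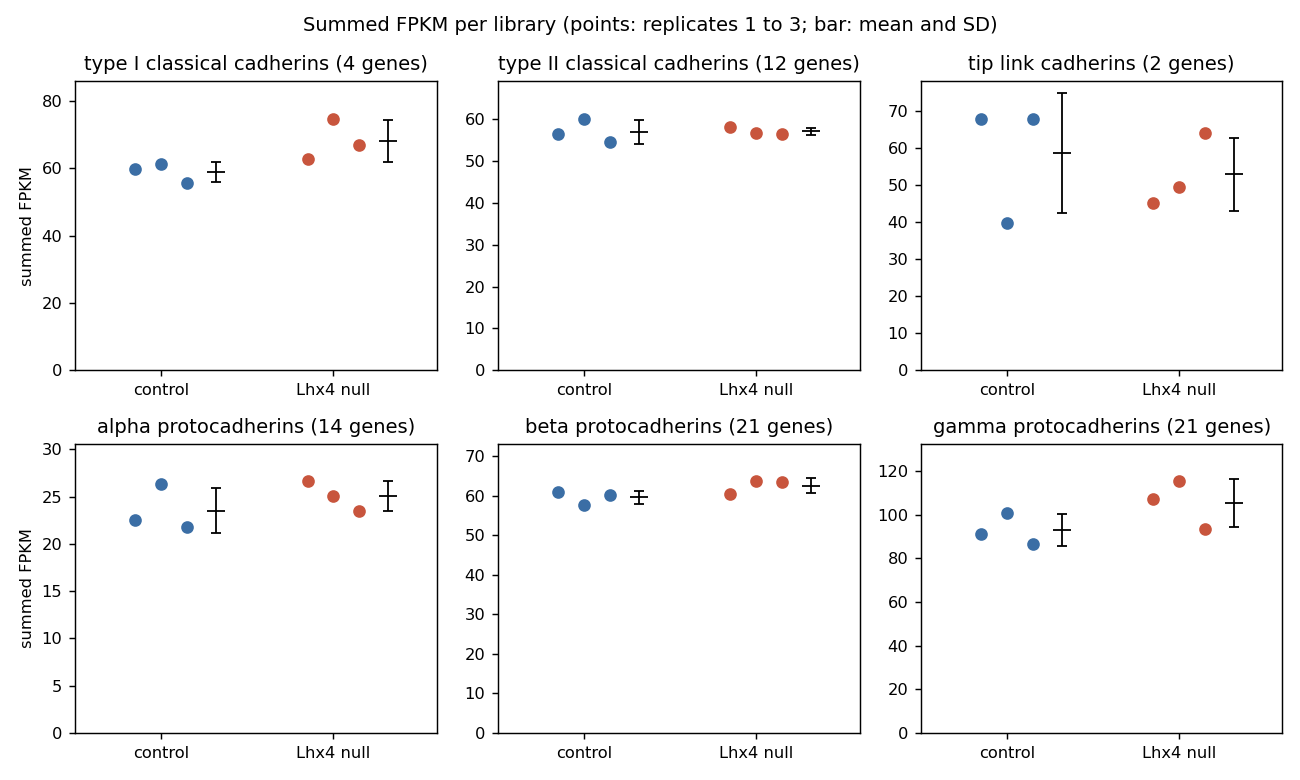
Summed FPKM of 6 subfamilies in each library (points) with the group mean and SD; each axis starts at 0. The type I sums of the groups do not overlap (59.9, 61.2, and 55.6 against 62.6, 74.7, and 66.9 FPKM), and the sums of the other 5 subfamilies overlap. Most of each type I sum is *Cdh2* alone (49.8, 50.0, and 46.2 against 51.1, 61.8, and 57.2 FPKM).

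The intracellular partners of these proteins had 0 genes past the adjusted threshold of 0.05 in each list (limma). Of 9 catenins, which join cadherins to actin, 8 were higher and 1 lower, with a median log2 change of 0.10. *Jup*, plakoglobin, had the lowest unadjusted p of the list, at 11.9, 13.9, and 11.5 FPKM in the controls and 15.8, 18.5, and 13.7 FPKM in those labelled *Lhx4* null (log2 fold change 0.35, adjusted p = 0.537 from limma), and the groups overlapped by 1 library. *Pkp4* followed (log2 fold change 0.18, adjusted p = 0.666 from limma). *Ctnnb1*, beta-catenin, was the same within the spread, at 157 to 175 FPKM in the controls and 163 to 174 FPKM in those labelled *Lhx4* null. Of 12 actin-linked partners, 10 were higher, with a median of 0.06 and with *Wasf1*, a subunit of the complex recruited by delta protocadherins, at 0.19 (adjusted p = 0.605 from limma) and *Lima1* at 0.30 (adjusted p = 0.673).

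Among 6 genes for the enzymes that cleave cadherins, 5 were higher, with a median log2 change of 0.10. *Ncstn*, a gamma-secretase subunit, was at 41.2, 39.4, and 39.3 FPKM in the controls and 44.0, 61.8, and 49.0 FPKM in those labelled *Lhx4* null (log2 fold change 0.35, adjusted p = 0.514 from limma), and *Aph1a* of the same enzyme was at 0.15 (adjusted p = 0.682). Of 11 regulators of promoter choice in the protocadherin clusters, such as the chromatin loop proteins, 6 were higher and 5 lower, with a median of 0.03. The lowest unadjusted p were those of *Wiz* (log2 fold change 0.27, adjusted p = 0.609 from limma) and *Nipbl*, the cohesin loader (-0.14, adjusted p = 0.695). Of 7 tip link partners, 4 were lower and 3 higher, with a median of -0.06. *Adgrv1*, a large adhesion receptor of photoreceptors and hair cells, was higher in all 3 libraries labelled *Lhx4* null than in the controls (8.32, 8.89, and 8.88 against 10.4, 11.5, and 9.97 FPKM, log2 fold change 0.28, adjusted p = 0.468 from limma).

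The remaining cell type lists were counted beside the members. Ganglion cell markers were higher in 6 of 11, with a median log2 change of 0.03, and horizontal cell markers in 3 of 4 (0.12). Pericyte and fibroblast markers were lower in 5 of 8 (-0.08), and 1 was called higher. Microglia markers were higher in 6 of 8 (0.26), and proliferation markers in 8 of 9 (0.49), with 1 at an unadjusted p under 0.05 in each and 0 at an adjusted p under 0.05 in limma. Their part in the values of the members was not tested.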

How the data were processed

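RNA-seq libraries of total retinal RNA came from 3 control mice and 3 mice labelled *Lhx4* null, 1 library each. The submitters' processing notes name TopHat2, Cufflinks, and GRCm38, and the authors deposited FPKM for each gene. The versions, the annotation, and the use of strand are not given in the sources used here. The table held 21744 genes, no column was left unused, and it holds no counts, so no count model was fitted.

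The 15200 genes whose mean reached 0.1 FPKM were compared between the groups on log2(FPKM + 0.1) in limma 3.58.1 (R 4.3.3), with a trend of variance on level and without a block. Tests were two-sided, with Benjamini-Hochberg adjustment over all genes tested. Fold changes on this scale understate the change of low genes. P-values set the group difference against the spread between libraries of a group, each from a different mouse, with 3 per group. That spread cannot separate mice from library preparation or depth. The fit was tested on simulated data in which the changed genes moved further than any member did here. That test does not show how well smaller changes are recovered. Relative depth came from the steps of 1 fragment in 5708 genes under 0.1 FPKM in every library, and since total counts are unknown, no counting intervals are given.

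The members and all gene lists were chosen with earlier results of these data known. Genes named were *Cdh8*, *Cdh9*, and *Cdh3*, those past the adjusted threshold, those with an unadjusted p under 0.05 and no overlap, the 2 most abundant of each subfamily, and the 2 partners of lowest p in each list, of which 1 gene is not reported here; others were chosen after their values were seen. All 91 identifiers were found in GENCODE vM21, 90 with the same symbol. Promoter windows came from RefSeq (GRCm38.p6). Figures were drawn with Python 3.11.15 and matplotlib 3.10.9. Alternatives changed the pseudocount, filter, scaling, trend, replicate block, and libraries.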

Additional observations from a re-analysis of the deposited data

How the results depend on the processing

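*Cdh8* had an adjusted p under 0.05 from limma in every setting run, with a log2 fold change from -1.14 to -0.97. *Cdh20* kept its direction throughout (0.65 to 0.78). The count of higher members at an adjusted p under 0.05 was 1 under the pseudocounts, filters, scalings, and the fit with no trend, and ranged from 0 to 1 when single libraries were left out. At an unadjusted p under 0.05, the lower members numbered 2, against 1 with no filter and 4 with no trend, and 1 to 2 with single libraries left out, and the 7 higher members ranged from 3 to 12 with single libraries left out. Some members with log2 fold changes near 0 changed sign as libraries were left out: *Cdh4* (-0.0058 to 0.22), *Cdh11* (-0.085 to 0.023), *Pcdh15* (-0.38 to 0.0038), *Pcdh1* (-0.17 to 0.11), *Pcdh7* (-0.14 to 0.12, and -0.0034 with scaling by the median of ratios), *Pcdh8* (-0.076 to 0.12), and *Pcdh12* (-0.40 to 0.20). The cause was not tested. The median of all genes was -0.003 with scaling by the median of ratios and 0.001 with quantile normalization, against 0.011, and 61 and 64 members were then higher, against 65. Depth limits the low members most, since the library read least deeply had 46.7% of the fragments of the deepest.

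With the replicate number as a block, 0 members were higher at an adjusted p under 0.05 (*Cdh20* had an adjusted p of 0.12 in limma) and 1 was lower at an unadjusted p under 0.05. Over all genes the block gave 11 lower and 4 higher calls, against 21 and 13. The labels share only the number: same-numbered libraries had deviations from their group means correlated at -0.127, -0.0002, and 0.162 across genes.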

Other observations

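The wider cadherin superfamily, whose symbols the rule did not take, was also measured. Of 15 such genes tested, 9 were higher and 6 lower, and their median log2 fold change was 0.07, and 0 had an adjusted p under 0.05 and 1 an unadjusted p under 0.05 in limma. That gene was *Fat4*, a giant cadherin of planar polarity and growth control, at 2.71, 2.80, and 2.86 FPKM in the controls and 1.91, 2.12, and 2.18 FPKM in those labelled *Lhx4* null. The groups did not overlap (log2 fold change -0.42, standard error 0.12, adjusted p = 0.403 from limma). *Fat1*, its relative, was at 5.16, 6.43, and 4.69 FPKM against 6.72, 11.3, and 5.40 FPKM and overlapped between the groups (log2 fold change 0.46, adjusted p = 0.682 from limma). *Cdhr1*, the photoreceptor cadherin of the outer segment base, was more abundant than any member, at 207, 271, and 208 FPKM against 266, 205, and 186 FPKM. Its groups overlapped (log2 fold change -0.07, 95% interval -0.42 to 0.29). *Clstn1*, a calsyntenin of axonal transport, lay in the same range of levels, at 207 to 223 FPKM in the controls and 216 to 265 FPKM in those labelled *Lhx4* null. *Cdhr1* and *Clstn1* were chosen after their values were seen.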
